A study of Mus musculus with 12 samples.

Results

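The Sox9 Sublow and Sox9 Low populations of the mouse intestinal epithelium were compared gene by gene, with 3 RNA sequencing libraries each, out of 12 libraries in the study. Every gene with a normalised read count of at least 10 in at least 3 of the 12 libraries was tested, which took in 16577 of 30265 gene symbols. All groups were intestinal epithelial cells of C57Bl/6 mice that carry a Sox9-GFP reporter. They differ in the brightness of that reporter, which splits the cells into Sox9 High, Low, Sublow and Negative gates, and the labels name no treatment, age or gut region. A library was made from 12000 sorted cells, and ribosomal RNA was removed before sequencing. The replicates are lettered A, B and C, and nothing says that they came from separate animals, so the p-values measure the spread between these libraries, which may be technical. A gate takes in every cell of a given brightness, whatever its type. In bulk RNA of this kind fewer cells of a type and less RNA per cell cannot be told apart.

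Sox9 is a transcription factor of the crypt base that is maintained by Wnt signalling. In the small intestine, stem cells at the crypt bottom divide under Wnt and Notch signals, and their daughters amplify, move upward and become absorptive enterocytes or secretory cells (goblet, Paneth, enteroendocrine and tuft cells). Low reporter expression is known to mark active stem cells, and the sublow gate is known to hold mainly their dividing progeny, while mature enterocytes lack the reporter and enteroendocrine and tuft cells are brightest. The comparison of Sublow with Low therefore addresses what changes in RNA between the stem cell gate and the gate next to it.

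The 6 libraries held 11630042 to 17046944 reads, and 3 reads, taken as the lower limit of detection, correspond to 2.38 to 3.35 normalised read counts. Values are given throughout as normalised read counts (reads divided by a size factor of the library) in the order A, B, C. Differences are Sublow minus Low on the log2(value + 1) scale with their standard error (SE), and q is the limma p-value after Benjamini-Hochberg adjustment over all 16577 genes. Sox9 itself checked the labels. It stood at 7654, 5945 and 6204 in Low and at 1955, 1259 and 3039 in Sublow, a difference of −1.75 ± 0.30 (SE, n = 3 against 3, limma q = 0.00173), and the groups did not overlap. The Sublow libraries were less alike (pairwise correlation of log2 values 0.941 to 0.966) than the Low libraries (0.970 to 0.974). Sublow B stood closer to a Negative library (0.969 with Negative A) than to either other Sublow library, and Sublow C stood closer to a Low library (0.954 with Low B) than to Sublow B. For many results the value or count without 1 library is given as well, but not for every result that depends on 1 library. Marker lists of non-epithelial cells were checked as well. Of 17 T cell and intraepithelial lymphocyte markers, 13 were tested and none was called by limma or edgeR (1 was lower at an unadjusted p below 0.05 and 1 by DESeq2), with summed levels of the 17 at 683 to 698 in Low and 536 to 782 in Sublow. Of 7 tested stromal and muscle markers 1 was lower (Vim, −5.06; none without Low A, Low C or Sublow B), and the sum over all 12 was 647 to 1231 in Low and 318 to 383 in Sublow. Of 4 tested endothelial markers 2 were lower (Plvap and Tek; 1 without Low A, Low C, Sublow B or Sublow C), and the sum over all 7 was 741 to 847 in Low and 656 to 886 in Sublow. The part of these cells in the results was not tested.

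At q below 0.05, 2201 genes were higher in Sublow (13.3% of those tested) and 1778 were lower (10.7%), which together are 24.0% of genes. A change of at least 2-fold was met by 965 higher genes (5.82%) and 1211 lower genes (7.31%). The 2 groups of 3 libraries did not overlap for 37.0% of all tested genes. The split depends on scaling: 55.3% of the called genes were higher with the authors' size factors, 50.1% (2035 higher, 2030 lower) after quantile scaling, and 28.6% (1306 higher, 3263 lower) when each library was scaled to the same total, which moved the median difference of all genes from −0.06 to −0.33. Under all 19 alternatives 1015 genes (6.12%) remained higher and 802 (4.84%) remained lower. Counts of list members below are to be read against these all-gene shares of 13.3% higher and 10.7% lower. Under an alternative the all-gene counts themselves differ. With same-total scaling 1306 of 16577 genes were higher and 3263 lower. Without Sublow C 2767 were higher and 2836 lower, and without Sublow B 1342 were higher and 1158 lower. Most genes named below as higher or lower are among those that held under all 19 alternatives, and exceptions are given with their values. Of the 2201 higher genes, 2059 (93.5%) had their highest mean of the 4 gates in Negative, 88 (4.00%) in Sublow and 54 (2.45%) in High. Of the 1778 lower genes, 1381 (77.7%) had it in High and 396 (22.3%) in Low. Sublow was thus seldom the extreme of the 4 gates among the genes that rose.

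**Figure D1:**
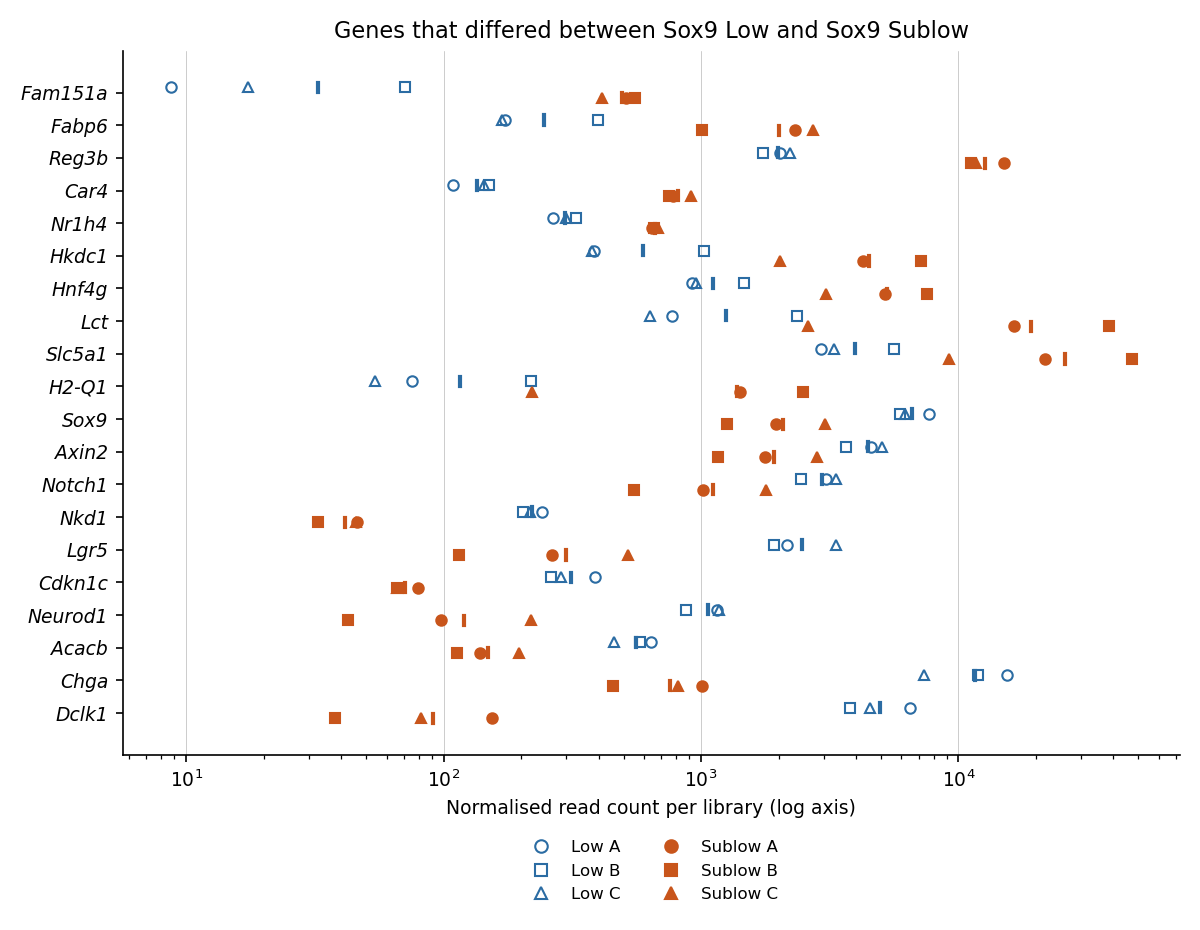
Normalised read counts (log axis) of 20 genes in each library, with open symbols for Low, filled symbols for Sublow, a circle, square and triangle for replicates A, B and C, and a short bar at each mean. Fam151a lies between 8.71 and 71.1 in Low and between 412 and 555 in Sublow, while Dclk1 lies between 3802 and 6470.5 in Low and between 38.0 and 154 in Sublow.

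Genes that rose furthest were those of absorptive cells. Fam151a, a membrane protein gene of absorptive epithelia, was 8.71, 71.1 and 17.4 in Low and 509, 555 and 412 in Sublow, a difference of 4.38 ± 0.67 (q = 0.00103). Slc13a2, a sodium-coupled citrate and succinate transporter, was 15.2, 63.4 and 31.7 in Low and 429, 869 and 227 in Sublow (3.76 ± 0.67). Low B was the highest Low library for both genes, and every Sublow library exceeded it. Spink1, a trypsin inhibitor, went from 6.54, 22.3 and 12.7 to 156, 323 and 106 (3.72 ± 0.45). Low B was the highest Low library there too. Of the other genes with the 15 largest rises, the bile salt-activated sphingomyelinase Enpp7 (3.54 ± 0.60), the antimicrobial lectin Reg3a (3.60 ± 0.58), the apolipoprotein Apoa1 (3.52 ± 0.70), the sugar cotransporter family member Slc5a4a (3.69 ± 0.87), the cyclic ADP-ribose enzyme Bst1 (3.48 ± 0.73) and Unc93a2 (4.01 ± 0.74) all peaked in Sublow B. By the gap between the nearest libraries of the groups, the adhesion gene Tmigd1 also ranked high, at 64.3, 115 and 49.9 in Low and 783, 559 and 466 in Sublow (3.02 ± 0.35, q = 0.000205). The cytokine Il18 (3.14 ± 0.45) and the apoptosis-related Bcl2l15 (2.18 ± 0.24) ranked among the 10 widest gaps as well.

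Brush-border hydrolases, the enzymes that finish digestion at the cell surface, were higher in 18 of 19 members tested, against 13.3% of all genes. Their median difference was 3.02 against −0.06, and 16 were higher without Sublow B. Lactase (Lct) was 771, 2350 and 636 in Low and 16375, 38374 and 2607 in Sublow (3.49 ± 0.79, q = 0.00782). Sublow C lay just above Low B, so the groups nearly met. Intestinal alkaline phosphatase (Alpi) showed the same layout, with 798, 2169 and 407 in Low and 10865, 15361 and 2389 in Sublow (3.05 ± 0.69, q = 0.00787). Aminopeptidase A (Enpep), which cuts acidic residues from peptides, was further apart, at 546, 1566 and 770 in Low and 9725, 14751 and 5448 in Sublow (3.40 ± 0.39, q = 0.000218). The dipeptidase Dpep1 differed by 3.66 ± 0.50, the gamma-glutamyltransferase Ggt1 by 3.62 and maltase-glucoamylase (Mgam) by 1.69.

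Promoters of the genes that rose were searched because HNF4 factors are known to drive brush-border genes and Hnf4g rose here. The 250 bases before each RefSeq start on GRCm38.p6 were searched for 25 motifs on both strands, and 11675 of the tested genes, matched by symbol, had such a window. CAAAGTCCA, an HNF4 motif, was in 22 of 1705 windows of higher genes (1.29%), in 2 of 1360 windows of lower genes (0.147%) and in 59 of all 11675 (0.505%). The shorter AAAGTCCA, which is contained in it, was in 2.52%, 0.515% and 1.28%. The core CAAAGTC, also contained in it, was in 6.28%, 3.90% and 4.26%, a smaller contrast. TGAGTCA, the AP-1 motif, was in 6.98% of higher, 3.82% of lower and 4.37% of all windows. For CTTTGAT, the TCF motif, the shares were 2.52%, 3.38% and 2.95%. A match is a description of letters and no evidence of binding, and most genes that rose hold none of the HNF4 letters. The 250 upstream bases of the 4 pathway members with the motif and the largest differences that held under every alternative are printed 5′ to 3′ on the gene's strand, with the motif in capitals. They are Alpi (chr1:87101607-87101856, minus strand, motif from −19 relative to the start), Cyp2c65 (chr19:39060756-39061005, plus strand, from −116), Slc3a1 (chr17:85028097-85028346, plus strand, from −39) and H2-T3 (chr17:36190152-36190401, minus strand, from −16), which encode a phosphatase, a cytochrome P450, an amino acid transporter subunit and a non-classical MHC class I protein.
Alpi: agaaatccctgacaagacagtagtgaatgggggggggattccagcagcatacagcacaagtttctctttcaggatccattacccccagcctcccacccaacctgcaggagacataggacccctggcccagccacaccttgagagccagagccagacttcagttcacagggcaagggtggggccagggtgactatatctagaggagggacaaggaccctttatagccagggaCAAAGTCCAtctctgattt
Cyp2c65: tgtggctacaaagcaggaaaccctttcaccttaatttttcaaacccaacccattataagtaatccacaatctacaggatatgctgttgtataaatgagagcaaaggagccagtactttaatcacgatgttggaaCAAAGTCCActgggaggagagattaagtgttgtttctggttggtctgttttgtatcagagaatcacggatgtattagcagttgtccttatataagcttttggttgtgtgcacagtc
Slc3a1: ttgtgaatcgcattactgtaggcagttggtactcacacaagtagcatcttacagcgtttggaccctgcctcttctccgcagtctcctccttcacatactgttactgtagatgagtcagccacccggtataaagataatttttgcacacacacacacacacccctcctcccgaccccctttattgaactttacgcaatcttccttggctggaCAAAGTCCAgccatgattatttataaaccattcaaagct
H2-T3: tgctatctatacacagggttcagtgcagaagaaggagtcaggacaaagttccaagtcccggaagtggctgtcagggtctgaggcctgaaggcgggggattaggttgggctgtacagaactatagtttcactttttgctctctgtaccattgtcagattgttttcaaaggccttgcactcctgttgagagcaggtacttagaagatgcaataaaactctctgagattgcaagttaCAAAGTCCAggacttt
In 3 of these 4 promoters the motif begins between −39 and −16, and Cyp2c65 holds it further upstream. Called list members with the motif that were considered but not printed also hold it further upstream: Treh (−71), Cyp2c68 (−77), Cyp3a11 (−109) and Muc13 (−186). The choice of printed and unprinted members did not take in every chromosome.

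Sugar transport rose as a whole. All 11 tested sugar transporters and fructose enzymes were higher (8 without Sublow B), with a median difference of 2.37. The sodium-glucose cotransporter Slc5a1 was 2934, 5632 and 3294 in Low and 21625, 47085 and 9175 in Sublow (2.47 ± 0.46, q = 0.00281), with no overlap. The basolateral glucose carrier Slc2a2 was 170, 532 and 150 in Low and 3018, 7331 and 669 in Sublow (3.36). Sublow C was the lowest Sublow library for both, but remained above Low B. The fructose carrier Slc2a5 differed by 2.30.

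Amino acid and peptide transport was mixed: 10 of 20 tested members were higher and 1 was lower, with a median of 1.35; 2 were lower without Sublow C. Members that rose include the imino acid carrier Slc6a20a (3.16), the peptide carrier Slc15a1 (2.35) and the cystine carrier Slc7a9 (2.97). The neutral amino acid carrier Slc6a19 was 483, 694 and 455 in Low and 1525, 2605 and 469 in Sublow (1.20 ± 0.46, q = 0.0782), did not pass the test, and passed with a replicate block (q = 0.0457), edgeR, DESeq2, library weights or without Sublow C (1.90). The heavy chain of Slc7a9, Slc3a1, was 220, 505 and 315 in Low and 1276, 1917 and 830 in Sublow (1.95 ± 0.33). The heavy chain Slc3a2, which serves the basolateral exchangers, was 854, 1088 and 698 in Low and 2394, 3678 and 1681 in Sublow (1.50 ± 0.25, q = 0.00146). Its light chains went in different directions. Slc7a8 was higher (2.14), whereas Slc7a5, the large neutral amino acid carrier of growing cells, fell from 491, 450 and 441 to 229, 182 and 328 (−0.94 ± 0.20, q = 0.00532).

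Among 29 tested genes of ion transport and of the guanylin axis, which regulates it, 14 were higher and 1 was lower (median 1.09), and the lower one, the potassium channel Kcnq1 (−1.16), missed the threshold without Low A (q = 0.0525). Without Sublow C 4 were lower, and with same-total scaling 3. The sodium-proton exchanger Slc9a3 was 190, 445 and 58.6 in Low and 2835, 4169 and 555 in Sublow (3.45 ± 0.83, q = 0.0104). The chloride-bicarbonate exchangers Slc26a3 (2.15) and Slc26a6 (3.07) rose with it. The chloride channel Cftr, which secretes, did not pass the test (−0.38, q = 0.27). Uroguanylin (Guca2b), the peptide that regulates salt and water transport, was 155, 345 and 131 in Low and 1648, 3345 and 701 in Sublow (3.03 ± 0.52, q = 0.00187), and the calcium-binding S100g differed by 1.94. Of 18 metal-handling genes 12 were higher and none was lower: the iron exporter ferroportin (Slc40a1) was 264, 354 and 186 in Low and 1376, 1061 and 475 in Sublow (1.77 ± 0.35, q = 0.00397), and its partner ferroxidase Heph differed by 1.33. The zinc importer Slc39a4 (1.73) was higher too, while the metallothionein Mt1 differed by 0.09 (q = 0.887).

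**Figure D2:**
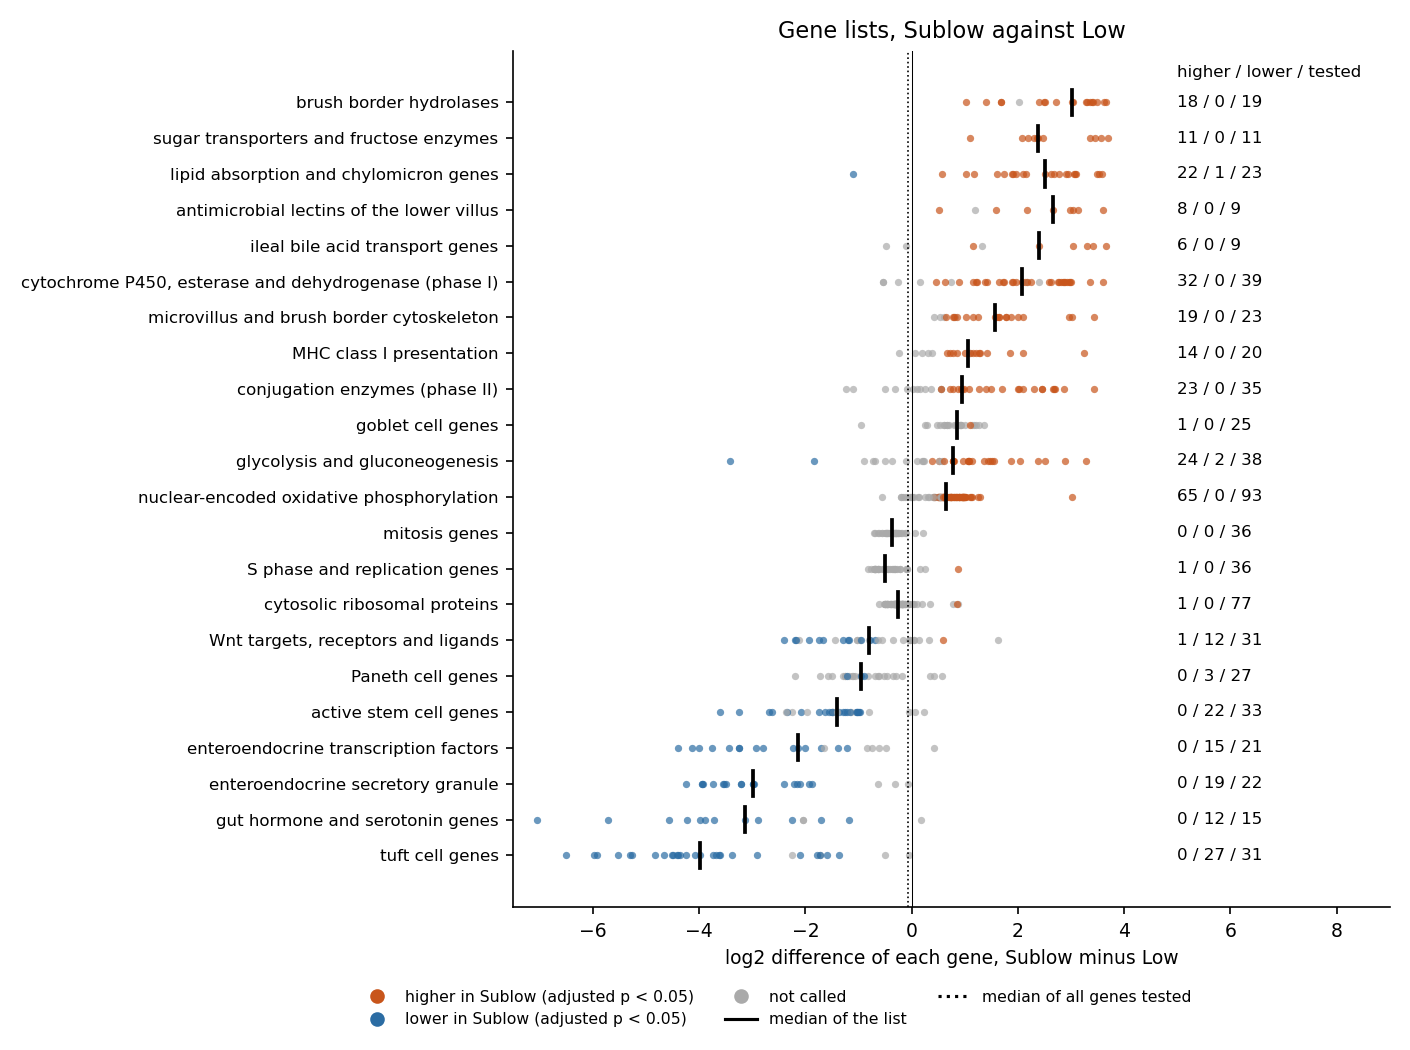
Difference between Sublow and Low, in log2 units, for the tested members of 22 gene lists, with a dot for each member, a bar at the list's median, a dotted line at the median of all genes (−0.06), and the numbers higher, lower and tested at the right. Hydrolase, sugar and lipid lists lie almost wholly to the right of the line, and the tuft and granule lists lie to the left.

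Lipid absorption genes were higher in 22 of 23 members tested (median 2.52), and in 17 without Sublow B. Mttp, which loads triglyceride onto apolipoprotein B, was 2289, 4868 and 1982 in Low and 24982, 42108 and 8737 in Sublow (2.90 ± 0.48). Fatty acid-binding protein 1 (Fabp1) was 390, 1512 and 466 in Low and 8417, 21109 and 2699 in Sublow (3.59). The monoacylglycerol acyltransferase Mogat2 (3.48), the acyltransferase Dgat2 (2.69) and the cholesterol importer Npc1l1 (2.62) were among the others. The exception was Scarb1, the HDL receptor, which fell from 404, 359 and 253 to 227, 153 and 107 (−1.09 ± 0.25, q = 0.00794). In mitochondrial and peroxisomal fatty acid oxidation 15 of 22 tested genes were higher. The medium-chain dehydrogenase Acadm was 972, 1145 and 1002 in Low and 1782, 2570 and 1914 in Sublow (0.99 ± 0.15, q = 0.000873). Cpt1a, which admits fatty acids to mitochondria, differed by 0.26 (q = 0.24). In the same list 1 gene was lower, and none without Low B, Low C, Sublow A or Sublow B. Acetyl-CoA carboxylase 2 (Acacb), whose product inhibits fatty acid entry into mitochondria, fell from 638, 581 and 460 to 138, 113 and 197 (−1.93 ± 0.21, q = 0.000139), while fatty acid synthase (Fasn) differed by −0.15 (q = 0.711).

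Xenobiotic metabolism rose in both phases. Of 39 phase I genes 32 were higher and none was lower (median 2.07), and of 35 phase II genes 23 were higher and none was lower (median 0.96). Without Sublow B 28 phase I genes were higher and 1 lower, and 17 phase II genes were higher. Without Low B or Sublow C 1 phase II gene was lower. Cyp2b10 was 40.3, 196 and 54.7 in Low and 1158, 3091 and 225 in Sublow (3.60 ± 0.80), so that Sublow C stood only a little above Low B. Cyp2c65 was 394, 616 and 303 in Low and 1696, 3830 and 946 in Sublow (2.13 ± 0.41, q = 0.0033). Cyp3a13 (2.86), the carboxylesterase Ces2e (3.01), the sulfotransferase Sult1b1 (2.69) and the glutathione transferases Gsta1 (3.44) and Gstm3 (2.45) were other members called. How the authors counted reads shared by near-identical family members is not given in the sources used here, so values within the Cyp, Gst, Ces, Reg3 and H2 families are uncertain for single members. Efflux pumps split: 4 of 11 were higher, such as Abcc2 (1.90) and Abcg2 (1.41), and 3 were lower, such as Abcc4 (−2.05) and Abcg1 (−1.31).

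Genes of ileal bile acid handling were high in all 3 Sublow libraries. They take up bile acids, bind them, export them and signal their arrival, and 6 of 9 tested members were higher (median 2.39). The bile acid receptor Nr1h4 was 267, 326 and 299 in Low and 643, 656 and 679 in Sublow (1.15 ± 0.14, q = 0.000338). The ileal bile acid-binding protein Fabp6 was 173, 396 and 168 in Low and 2319, 1011 and 2710 in Sublow (3.03 ± 0.56, q = 0.0026). Sublow C was the highest library in both, the reverse of its place among hydrolases and lipid genes. The hormone Fgf15, a target of the receptor, was 8.71, 9.42 and 6.34 in Low and 182, 113 and 71.2 in Sublow (3.66 ± 0.43, q = 0.000239). The export subunit Slc51b was 49.0, 99.3 and 52.3 in Low and 738, 1097 and 405 in Sublow (3.42 ± 0.34, q = 8.59e-05), and its partner Slc51a was 118, 331 and 112 in Low and 1653, 2205 and 1170 in Sublow (3.30 ± 0.46). The uptake carrier Slc10a2 was 16.3, 24.8 and 17.4 in Low and 136, 80.5 and 105 in Sublow (2.39 ± 0.73, q = 0.0324). It missed the threshold without Low A, Low B, Low C, Sublow A or Sublow B (q = 0.0541 to 0.0974). Taking the members with a Negative mean of at least 100, 6 in all, the median Sublow level was 92.2%, 80.6% and 65.9% of the Negative mean, and the median Low level was 9.28%, 17.5% and 8.06%. For hydrolases the same medians were 40.7%, 68.3% and 14.9% in Sublow and 3.09%, 7.51% and 2.80% in Low. For lipid genes they were 39.5%, 68.4% and 16.3% in Sublow and 5.59%, 9.54% and 5.56% in Low. The bile acid list was therefore closer to its Negative level in all 3 Sublow libraries than were the hydrolases and the lipid genes; this difference between lists was not tested.

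**Figure D3:**
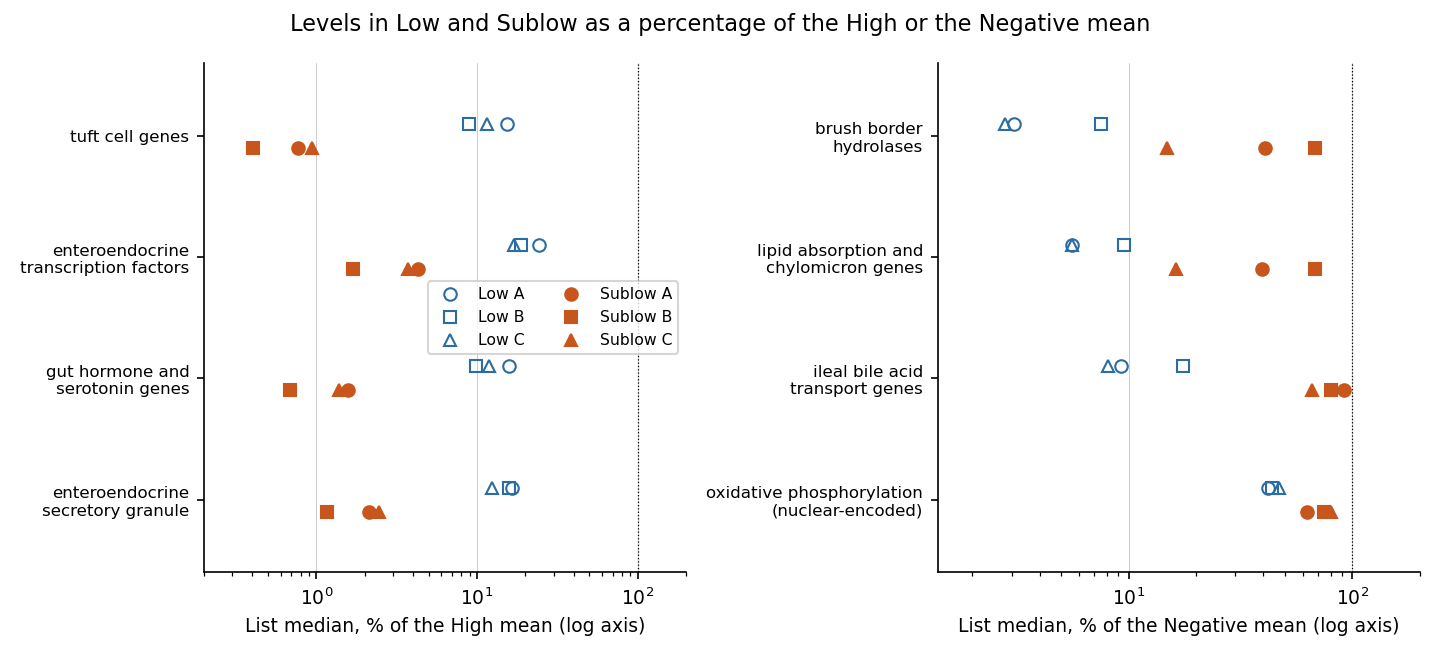
Median level of gene lists in each Low and Sublow library, on the left as a percentage of the High mean (tuft, enteroendocrine factor, hormone and granule lists) and on the right as a percentage of the Negative mean (hydrolases, lipid, bile acid and oxidative phosphorylation lists), over members whose reference mean is at least 100. Tuft genes lie at 8.97% to 15.4% of High in Low and at 0.406% to 0.939% in Sublow, and bile acid genes lie at 65.9% to 92.2% of Negative in Sublow.

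The graded pattern was the common one. Of 1954 higher genes with a mean of at least 100 and no overlap, Sublow C was at or above Sublow B in 288, and the median range within Sublow was 0.62 log2 units against 0.40 within Low. Of 1177 lower genes chosen the same way, Sublow C was at or above Sublow B in 964, with median ranges of 0.73 and 0.36. Higher genes with a range under 0.5 in Sublow numbered 790, and 62 genes that rose at least 2-fold and 103 that fell as much had such even Sublow levels. Of 9 tested antimicrobial lectins and cytokines of the lower villus 8 were higher (median 2.66), and some of them were even. Reg3b, an antimicrobial lectin, was 2023, 1740 and 2211 in Low and 15066, 11179 and 11699 in Sublow (2.66 ± 0.17, q = 3.99e-06). Its relative Reg3g was 3580, 2656 and 2224 in Low and 15446, 10939 and 11383 in Sublow (2.17 ± 0.25, q = 0.000217). The carbonic anhydrase Car4 was 109, 151 and 143 in Low and 777, 748 and 914 in Sublow (2.60 ± 0.21). In these genes Sublow C was level with or above Sublow B.

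**Figure D4:**
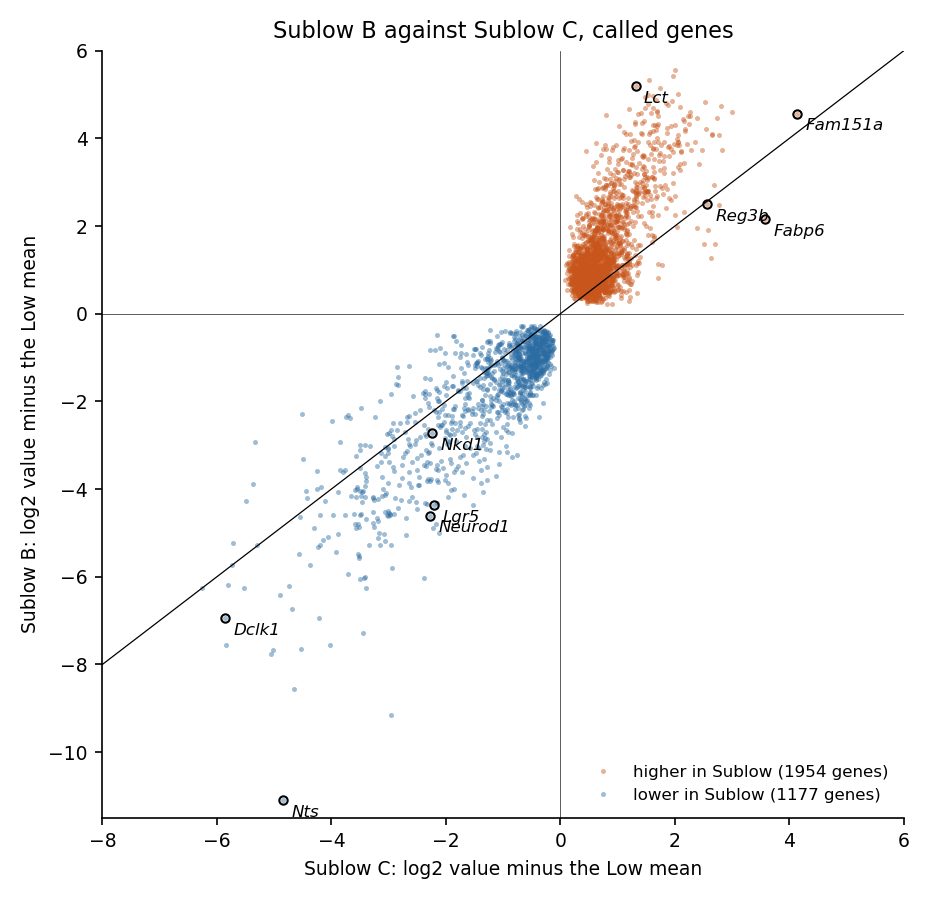
Log2 difference from the Low mean in Sublow C (x axis) and Sublow B (y axis), with a line where both libraries are equal. Shown are genes called in the comparison with a mean of at least 100 and no overlap between groups, 1954 higher and 1177 lower. Most higher genes lie above the line and most lower genes below it, so Sublow B is the farther library from Low for most genes.

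Few of the higher genes peaked in Sublow itself. Mgat4c, a glycosyltransferase of N-glycan branching, was 106, 213 and 166 in Low and 751, 468 and 894 in Sublow (2.12 ± 0.35). Gsdmc4, a gasdermin, was 139, 140 and 231 in Low and 716, 401 and 1029 in Sublow (2.01). Sublow B was the lowest Sublow library for both. B3gnt7, a keratan sulfate glycosyltransferase, was 204, 355 and 171 in Low and 766, 720 and 703 in Sublow (1.65 ± 0.24).

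Energy metabolism rose in mitochondria and in glycolysis. Of 93 nuclear-encoded oxidative phosphorylation genes 65 were higher and none was lower (median 0.64), and 38 were higher when libraries were scaled to the same total. The iron-sulfur subunit Sdhb of complex II was 1042, 1179 and 1039 in Low and 2550, 3168 and 2155 in Sublow (1.26 ± 0.14, q = 0.000191). Cox7a1, an isoform of a complex IV subunit, was 19.6, 61.7 and 26.9 in Low and 229, 495 and 168 in Sublow (3.02 ± 0.49). Over the 86 members with a Negative mean of at least 100, the median level was 42.1%, 43.8% and 47.2% of the Negative mean in Low and 62.8%, 74.8% and 80.6% in Sublow. The share of reads from mitochondrial genes was 2.53%, 2.82% and 3.31% in Low and 3.10%, 3.98% and 3.46% in Sublow, so these shares overlapped. Among 13 genes of the mitochondrial genome 2 were higher, 1 without Low A, Low B or Sublow B, and 5 without Sublow C.

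Of 38 glycolysis and gluconeogenesis genes 24 were higher and 2 were lower (median 0.78), with 1 lower without Low B, Sublow A or Sublow B and 5 without Sublow C. Hkdc1, a hexokinase-like gene, was 382, 1027 and 377 in Low and 4265, 7140 and 2018 in Sublow (2.90 ± 0.48, q = 0.00153). Its groups did not overlap. Lactate dehydrogenase A (Ldha) was 3056, 3711 and 2988 in Low and 8776, 11204 and 7297 in Sublow (1.47 ± 0.17, q = 0.000191). The gluconeogenic enzymes Pck1, at 147, 361 and 169 in Low and 1033, 2599 and 628 in Sublow (2.51), and G6pc (3.28) rose as well. In nitrogen and nucleotide metabolism, arginase 2 (Arg2) was 162, 528 and 233 in Low and 1956, 3637 and 1320 in Sublow (2.95 ± 0.46), and the ectonucleotidase Nt5e fell from 254, 296 and 258 to 115, 87.2 and 36.0 (−1.90 ± 0.37).

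Transcription factors of absorptive cells had smaller differences than the transport and digestion lists. Of 34 tested 10 were higher and 1 was lower (median 0.35), and the lower one, Ets2 (−0.64), missed the threshold without Low A, Low B, Low C, Sublow A or Sublow B (q = 0.0558 to 0.0892). Without Sublow C 3 were lower. Hnf4g, an enterocyte nuclear receptor, was 919, 1475 and 956 in Low and 5193, 7546 and 3069 in Sublow (2.18 ± 0.27, q = 0.00035). Its paralogue Hnf4a was 7657, 8671 and 8537 in Low and 9601, 9920 and 10979 in Sublow, without overlap, but did not pass the test (0.29 ± 0.12, 95% interval 0.03 to 0.56, q = 0.102); with library weights it passed (0.23, q = 0.0437). The intestinal identity factors Cdx1 (−0.03, interval −0.39 to 0.33) and Cdx2 (0.26, interval −0.09 to 0.61) did not pass it either. Maf (2.85) and Creb3l3 (2.98), which act in maturing enterocytes, were higher. Isx, a repressor of vitamin A uptake, was 1181, 1255 and 1292 in Low and 2226, 2076 and 2965 in Sublow (0.95 ± 0.15).

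Nuclear receptors were higher in 14 of 32 tested and lower in 1 (median 0.69). The xenobiotic receptor Nr1i3 was 35.9, 81.4 and 31.7 in Low and 395, 931 and 149 in Sublow (3.04 ± 0.53, q = 0.00192). Lipid and energy regulators followed at smaller size, among them Nr1h3 (1.36), Esrra (1.21), Ppard (1.21), Rxra (1.13) and Ppara (1.02), and the coactivator Ppargc1a was 386, 492 and 441 in Low and 1617, 2929 and 797 in Sublow (1.83 ± 0.39). The vitamin D receptor Vdr differed by 0.06 (q = 0.808). Rora was the receptor that fell, from 54.5, 37.7 and 49.1 to 15.3, 12.3 and 10.5 (−1.81 ± 0.26, q = 0.000778).

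Antigen presentation by MHC class I was higher in 14 of 20 genes tested and lower in none (median 1.05), though 6 were called without Low C and 9 without Sublow B. Beta-2 microglobulin (B2m), the shared light chain, was 1512, 1879 and 1877 in Low and 3724, 6421 and 3149 in Sublow (1.27 ± 0.26, q = 0.00413). The heavy chain H2-Q1 was 75.2, 218 and 53.9 in Low and 1422, 2486 and 221 in Sublow (3.25 ± 0.76, q = 0.00899), so that Sublow C and Low B were level. H2-T3 was 526, 706 and 457 in Low and 2199, 3457 and 1058 in Sublow (1.85 ± 0.37, q = 0.00385). Interferon-responsive genes were higher in 8 of 26 tested (3 without Low C, Sublow A or Sublow B, 4 without Low A and 15 without Sublow C). Ifit3, an interferon-induced antiviral gene, was 18.5, 23.1 and 7.92 in Low and 136, 228 and 38.7 in Sublow (2.74 ± 0.58, q = 0.00553). Of 11 tested MHC class II genes and regulators 2 were higher, against 13.3% of all genes, and none was lower (median 0.40). The class II regulator Ciita (−0.25) and the invariant chain Cd74 (0.15) did not pass the test. The summed T cell and intraepithelial lymphocyte markers given above overlapped between the groups. Of the 13 tested markers 2 did not overlap, fewer than the 37.0% of all tested genes. Cd3e differed by 0.65 without passing the test.

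Genes of the Low gate that fell began with the stem cell list, where 22 of 33 tested were lower, against 10.7% of all genes, and none was higher (median −1.40); without Sublow B 15 were lower. Lgr5, the Wnt-amplifying receptor of crypt stem cells, was 2150, 1923 and 3354 in Low and 264, 115 and 519 in Sublow (−3.25 ± 0.44, q = 0.000574). The receptor Tnfrsf19 fell further, from 430, 252 and 438 to 27.6, 11.2 and 76.4 (−3.60 ± 0.59, q = 0.00152). Sublow B was lowest and Sublow C highest for both genes. Olfm4, a secreted glycoprotein of crypt-base cells, was 70067, 52059 and 60403 in Low and 13101, 5432 and 28492 in Sublow, without overlap, and did not pass the test (−2.25 ± 0.86, q = 0.0773). It passed without Sublow C (−2.84, q = 0.033), with a replicate block (q = 0.0134), with quantile scaling (q = 0.0321), with library weights (q = 0.00605) and with the 6 libraries fitted alone (q = 0.0278). The RNA-binding protein Msi1 (−2.35), the insulin-like growth factor-binding protein Igfbp4 (−1.37) and the transporter Slco3a1 (−2.07) were lower under all 19 alternatives.

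Of 31 Wnt receptors, ligands and targets tested 12 were lower and 1 was higher, against 10.7% and 13.3% of all genes (median −0.80); 6 to 7 were lower when Low A, Low B, Low C, Sublow A or Sublow B was left out, and 2 were higher without Low B. Axin2, the scaffold of the destruction complex and a general Wnt target, was 4588, 3652 and 5058 in Low and 1769, 1163 and 2822 in Sublow (−1.29 ± 0.25, q = 0.00374). Nkd1, which inhibits Dishevelled, fell from 242, 204 and 216 to 45.9, 32.4 and 45.7 (−2.40 ± 0.25, q = 0.000114). The ubiquitin ligase Rnf43, which clears Wnt receptors, fell from 3745, 3461 and 3606 to 1838, 1573 and 2134 (−0.97 ± 0.16, q = 0.00141), and its relative Znrf3 differed by −1.01. The core components did not pass the test: beta-catenin (Ctnnb1) differed by 0.20 (interval −0.08 to 0.47), the coreceptor Lrp6 by 0.05 (−0.30 to 0.40) and the R-spondin receptor Lgr4 by −0.06 (−0.39 to 0.28).

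Notch genes were lower in 3 of 24 tested and higher in 4, near the all-gene shares of 10.7% and 13.3%. The median was −0.27, −0.17 without Sublow B and −0.54 with same-total scaling, and 5 were lower without Sublow C or with that scaling. Over all genes the same scaling moved the median from −0.06 to −0.33. The receptor Notch1 was 3050, 2446 and 3343 in Low and 1014, 550 and 1780 in Sublow (−1.55 ± 0.35, q = 0.00759). The Notch inhibitor Numb went the other way, from 1074, 1214 and 1143 to 2176, 2846 and 1588 (0.91 ± 0.18). Ligands Dll4 (0.03) and Jag1 (0.32) did not pass the test. BMP signalling restrains stem cells and is strongest on the villus, and 4 of its 25 tested genes were higher and 4 lower, near the all-gene shares of 13.3% and 10.7%. The median was 0.08, −0.06 without Sublow B and −0.19 with same-total scaling, under which 7 were lower, beside the all-gene shift just given. The ligand Bmp2 was 131, 194 and 108 in Low and 320, 359 and 294 in Sublow (1.20 ± 0.22, q = 0.00265), and the feedback inhibitor Smad7 was 469, 556 and 407 in Low and 1270, 1528 and 757 in Sublow (1.26). The decoy receptor Bambi fell from 139, 118 and 146 to 29.6, 29.1 and 77.3 (−1.70 ± 0.35).

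Eph receptors and ephrins place cells along the crypt, with receptors high at the bottom and ligands high above. Of 14 tested 4 were higher and 5 lower; without Low A 2 were higher and 3 lower, and without Sublow B 3 were lower. The receptor Ephb3 fell from 1138, 943 and 922 to 277, 138 and 409 (−1.99 ± 0.30, q = 0.000933), and Epha4 (−1.62) and Epha7 (−1.82) fell with it. The ligand Efnb2 rose from 571, 807 and 602 to 2213, 3011 and 1489 (1.72 ± 0.23, q = 0.00056), and Efnb1 differed by 0.68. Receptors fell and ligands rose among these members. In ErbB signalling, 2 of 13 were higher (1 without Low C, Sublow A or Sublow B) and 2 lower (1 without Low A or Low B), near the all-gene shares of 13.3% and 10.7%. The ligand epiregulin (Ereg) was 9.80, 29.1 and 18.2 in Low and 80.7, 102 and 95.8 in Sublow (2.34 ± 0.40), and the receptor inhibitor Lrig1, also a stem cell marker, fell from 3881, 3670 and 3671 to 1986, 1315 and 2312 (−1.04 ± 0.21, q = 0.00487).

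Tuft and enteroendocrine genes fell in most members. Of 31 tuft genes tested 27 were lower and none was higher (median −3.97). The kinase Dclk1, a tuft cell marker, fell from 6470.5, 3802 and 4530 to 154, 38.0 and 81.7 (−5.92 ± 0.41). The taste channel Trpm5, which depolarises tuft cells, fell from 4064, 2399 and 2166 to 173, 70.4 and 149 (−4.49 ± 0.38). The lineage factor Pou2f3 fell from 863, 702 and 725 to 65.3, 32.4 and 94.0 (−3.68 ± 0.31, q = 2.47e-05). The villin relative Avil (−4.66) and the phospholipase Plcb2 (−5.30) of the taste pathway followed the same course. The glycogen phosphorylase Pygl fell from 997, 624 and 890 to 16.3, 6.71 and 30.8 (−5.67 ± 0.46, q = 2.06e-05). Others among the 15 largest falls were the G-protein regulator Rgs13 (−6.50), the diacylglycerol kinase Dgki (−5.85), the adaptors Sh2d6 (−5.54) and Sh2d7 (−5.25), Ccdc129 (−5.31), the leukotriene synthesis protein Alox5ap (−5.27), the lipid phosphatase Inpp5d (−5.19) and the irritant channel Trpa1 (−5.10), and all had their highest mean of the 4 gates in High. Rgs13, Dgki, Sh2d6, Ccdc129 and Trpa1 had fewer than 3 reads in Sublow B. Without that library they differed by −5.47, −4.89, −4.47, −4.87 and −3.87, and all were called. The median tuft gene stood at 15.4%, 8.97% and 11.5% of its High mean in Low and at 0.769%, 0.406% and 0.939% in Sublow, over the 29 members with a High mean of at least 100. Sublow B was lowest again, and every Sublow library lay below every Low library on this measure.

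Enteroendocrine transcription factors were lower in 15 of 21 tested and higher in none (median −2.14), though 1 was higher without Sublow C. Neurod1 fell from 1150, 874 and 1173 to 98.0, 42.5 and 218 (−3.43 ± 0.42, q = 0.000306), and Isl1 (−3.76) and Insm1 (−2.14) fell too. Neurog3, the factor that starts the lineage and is expressed only briefly, was 127, 145 and 92.7 in Low and 103, 31.3 and 193 in Sublow. Its groups overlapped fully, and the difference of −0.47 ± 1.11 (interval −2.90 to 1.95, q = 0.799) leaves its direction undetermined. Hormone genes were lower in 12 of 15 tested (8 without Sublow B), with a median of −3.14. Neurotensin (Nts) fell from 7343, 2101 and 6367 to 122, 1.12 and 159 (−7.06 ± 1.28). Peptide YY (Pyy) fell from 251, 154 and 213 to 8.17, 0 and 5.27 (−5.72). Both had fewer than 3 reads in Sublow B, and without that library they differed by −5.04 and −4.74. Somatostatin (Sst) did not pass the test (−2.05 ± 1.44, q = 0.339), but did with the 6 libraries fitted alone (q = 0.0195). Serotonin synthesis fell more evenly, with Tph1 at 1049, 949 and 821 in Low and at 125, 88.3 and 105 in Sublow (−3.14 ± 0.26, q = 2.13e-05). The granule proteins were lower in 19 of 22 tested (median −2.98). Chromogranin A (Chga) fell from 15475, 11903 and 7349 to 1009, 456 and 816 (−3.94 ± 0.39, q = 7.61e-05). As a share of the High mean, the median enteroendocrine factor was at 24.3%, 18.8% and 16.9% in Low and at 4.28%, 1.68% and 3.71% in Sublow over 18 members. Hormones were at 15.9%, 9.89% and 11.9% in Low and at 1.57%, 0.689% and 1.39% in Sublow over 13 members. Neuronal and glial markers moved alongside: 3 of 5 tested were lower (median −2.36), with sums over all 8 at 383 to 558 in Low and 202 to 331 in Sublow, and their part in the result was not tested.

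Most goblet and Paneth genes did not pass the test. Of 25 goblet genes 1 was higher and none lower (median 0.85), and 15 were called higher without Low B, 6 without Sublow A and none without Low A or without Low C. The mucin Muc2 was 52007, 144630 and 50863 in Low and 107600, 164380 and 151050 in Sublow (0.93 ± 0.38, q = 0.0974), and Low B alone overlapped the Sublow libraries. Without Low B its difference was 1.43 (q = 0.007). Atoh1, the factor that commits cells to secretory fates, was 366, 462 and 297 in Low and 495, 510 and 896 in Sublow, without overlap, and passed with DESeq2 (q = 0.0393) but not with limma (0.72 ± 0.29, q = 0.0911). Spdef (0.61) and Gfi1 (0.99), which act after it, did not pass either. Of 27 Paneth genes 3 were lower and none higher (median −0.95, −0.63 without Low C), and 1 or none was called when Low A, Low B, Low C, Sublow A or Sublow B was left out. Lysozyme (Lyz1) was 5296, 7920 and 14304 in Low and 4873, 3328 and 3792 in Sublow, without overlap (−1.10 ± 0.75, q = 0.329). Lyz1 varied more within Low than between the lowest Low and the highest Sublow library.

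**Figure D5:**
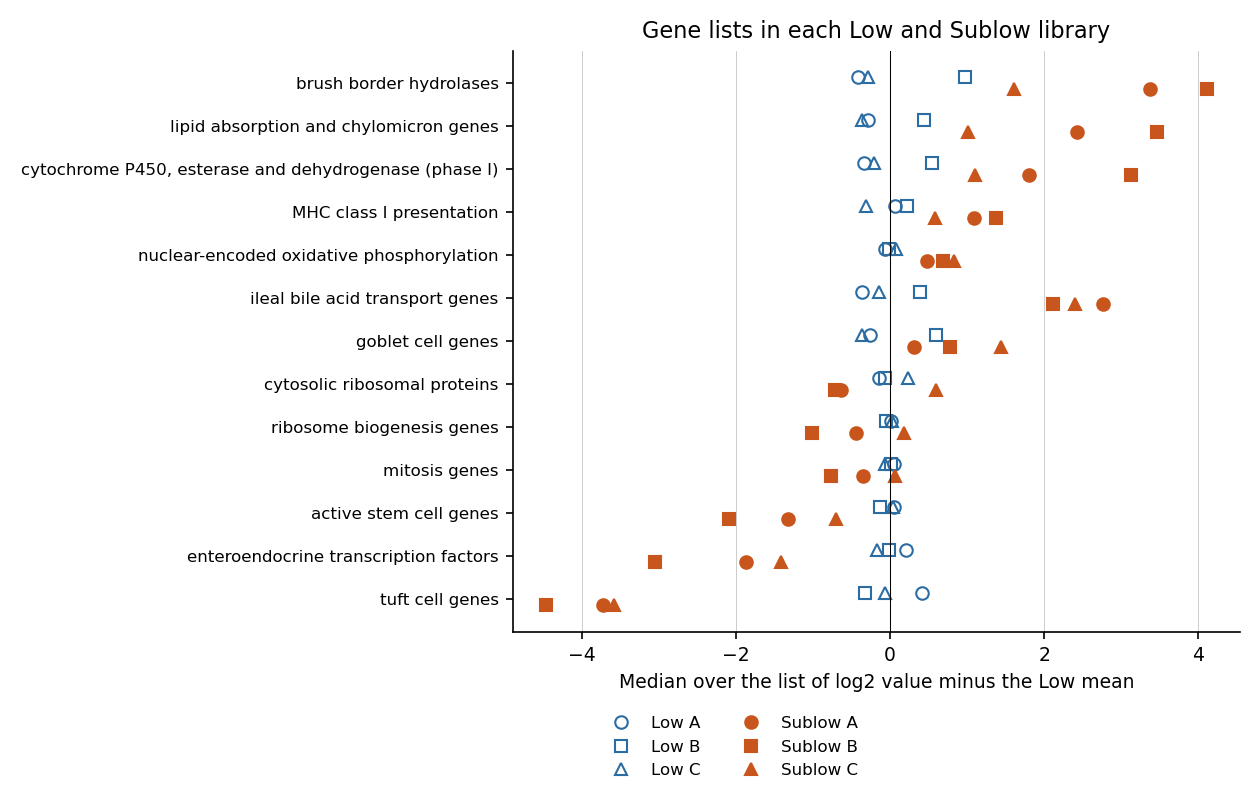
Median over the members of 13 gene lists of the log2 value minus the mean of the Low libraries, for each Low (open) and Sublow (filled) library, with a circle, square and triangle for replicates A, B and C. Bile acid genes lie at 2.11 to 2.76 in Sublow, whereas mitosis genes lie at −0.76 in Sublow B and at 0.07 in Sublow C.

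In genes of cell division the Sublow libraries differed in sign. Of 36 S phase genes 1 was higher (the factor E2f2, 0.88, not called with same-total scaling, q = 0.0687) and none lower (median −0.49). Of 36 mitosis genes none was called by limma, edgeR or DESeq2, and 1 was lower at an unadjusted p below 0.05. The median S phase gene stood at −0.46, −1.11 and 0.09 against the Low mean in Sublow A, B and C. The median mitosis gene stood at −0.35, −0.76 and 0.07. Sublow C therefore lay at the Low level and Sublow B below it. The proliferation marker Mki67 was 20750, 21201 and 18959 in Low and 17530, 11832 and 18764 in Sublow, with no call (−0.37 ± 0.40, interval −1.25 to 0.51, q = 0.557). Without Sublow C, 7 S phase genes and 1 mitosis gene were lower. Ribosomal protein genes followed this order, at −0.64, −0.71 and 0.60 in Sublow A, B and C, and 1 of 77 was higher (Rps4l) and none lower, against 50 lower without Sublow C. Among 22 tested G1 cyclins and CDK inhibitors 2 were higher (1 without Low A, Low B, Sublow A or Sublow B) and 3 lower (1 without Sublow B), near the all-gene shares of 13.3% and 10.7% (median −0.21). The CDK4 and CDK6 inhibitor Cdkn2b rose from 105, 249 and 63.4 to 739, 1222 and 495 (2.68 ± 0.46, q = 0.00181). Cdkn1c, known for holding reserve stem cells quiescent, fell from 388, 262 and 284 to 79.6, 66.0 and 65.9 (−2.11 ± 0.26, q = 0.000294). Its highest mean of the 4 gates was in High (2279).

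Chromatin lists held lower genes at near the all-gene share of 10.7%, and their counts depended on the scaling. Of 15 DNA methylation genes 2 were lower and none higher (median −0.25), while 1 was higher without Low B or Sublow A and 2 without Sublow C, and 4 were lower with same-total scaling. Tet1, which oxidises methylcytosine, fell from 314, 270 and 281 to 63.3, 60.4 and 134 (−1.83 ± 0.28, q = 0.00103). Among 41 histone modifiers 6 were lower and none higher, with 15 lower and 2 higher without Sublow C and 13 lower with same-total scaling. These 6 include Hdac6 (−0.93 ± 0.17, q = 0.0023) and Kmt2a (−0.66 ± 0.15, q = 0.00729). Of 40 Polycomb and SWI/SNF genes 4 were lower, near the all-gene share of 10.7%. None was lower without Low A or Sublow B, 1 without Low C, 2 without Low B or Sublow A, and 18 without Sublow C. With same-total scaling 22 were lower and the median went from −0.32 to −0.59. That scaling moved the median of all genes from −0.06 to −0.33 and their lower calls from 1778 to 3263. Without Sublow C 2836 of all genes were lower. The macroH2A2 gene H2afy2, a histone variant of repressed chromatin, differed by −2.54.

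A protocadherin gene marked the lower limit of detection. Pcdh20 was 71.9, 33.4 and 60.2 in Low and had no reads in any Sublow library. Against the limit that 3 reads over the Sublow group allow, it was at least 54.9-fold lower.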

How the data were processed

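Total RNA of sorted intestinal epithelial cells was sequenced after ribosomal depletion with a kit for low input, single-end, per the labels' protocols; which aligner, genome build and counting rules were applied is not given in the sources used here. Deposited was a table that holds a normalised signal per gene, which the authors made by dividing whole read counts by a size factor per library: every value came out as a whole read (100%, tolerance 0.01). Groups follow the labels. One limma 3.58.1 fit (R 4.3.3) of log2(value + 1) took in all 12 libraries with a variance trend, and Sublow was contrasted with Low at an adjusted p below 0.05. It was tested on simulated data. Alternatives were edgeR 4.0.16 and DESeq2 1.42.0 on the recovered reads, pseudocounts of 0.5 and 5, other filters, scalings and variance models, a replicate block, the 6 libraries alone and each library left out.

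Named genes are the 15 largest rises and falls and the 10 widest gaps between libraries in each direction (mean of at least 100, no overlap, predicted and non-coding genes skipped), Sox9, and members of the gene lists; some of them are not reported here. Mgat4c, Gsdmc4 and B3gnt7 lie outside this rule and were chosen after their values were seen. The comparison and the lists were chosen with earlier results of these data known. List medians and counts are descriptions, read against those of all genes, and not tests of the lists. Intervals are 95% limma intervals, and limits from read counts cover counting error only.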

Additional observations from a re-analysis of the deposited data

How the results depend on the processing

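The count of 3979 genes kept within 1.5 times under edgeR (4169), DESeq2 (4755), other pseudocounts and other filters. Scaling to the same total gave 1306 higher and 3263 lower genes. Library weights, which gave Sublow A 5.71, Sublow B 0.418 and Sublow C 0.215, called 7880 genes (3601 higher, 4279 lower). The 6 libraries fitted alone gave 2473 genes (1251 higher), and without Sublow B, an alternative chosen after seeing the data, 1440 (613 higher, 827 lower). In that last fit 36 of the 156 named genes called in the main fit missed the threshold. They include Lct (limma q = 0.0811), Alpi (0.0873), Slc2a2 (0.0634), Slc9a3 (0.0882), H2-Q1 (0.0977) and Vil1 (0.0561). A 2-fold threshold left 2176 genes (965 higher). Leaving out 1 library at a time gave 2500 (without Sublow B) to 5603 genes (without Sublow C), 1342 to 2767 of them higher and 1069 to 2836 lower; without Low A there were 2521. The replicate letters name no shared animal or day, and deviations of same-lettered Sublow and Low libraries correlated at 0.0869, 0.239 and 0.199 for A, B and C, with every library correlating best with its own letter, a hint from the data only. With a replicate block 5002 genes were called (2750 higher, 2252 lower). The causes of these changes were not tested. Depth limits genes near 3 reads.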

Other observations

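Structural genes of the epithelium changed in part. Of 16 keratin and desmosome genes tested 8 were higher and 1 lower, with 5 higher and 2 lower under same-total scaling and 3 lower without Sublow C. Keratin 20 (Krt20), a filament protein of differentiated cells, was 3440, 6437 and 2606 in Low and 16239, 26451 and 9714 in Sublow (2.06 ± 0.36, limma q = 0.00207). The keratin Krt23 fell from 380, 372 and 356 to 114, 220 and 198 (−1.11 ± 0.24). The membrane-bound mucin Muc3 of the glycocalyx was 1488, 2148 and 1540 in Low and 9240, 12620 and 4684 in Sublow (2.26 ± 0.30, q = 0.000521), and Muc13 differed by 1.03. The pore-forming claudin Cldn15 was 1408, 1853 and 1495 in Low and 2739, 4148 and 2915 in Sublow (1.03). Of 20 tight junction genes tested 8 were higher and 1 lower. Without Low A or Sublow B 4 were higher and none lower, without Low C 4 were higher, and with same-total scaling 5 were higher and 2 lower. The actin-bundling protein villin (Vil1) was 6484, 8398 and 5120 in Low and 21491, 33207 and 10975 in Sublow (1.60 ± 0.32). Of 23 microvillus genes tested 19 were higher (13 without Sublow B and 12 with the 6 libraries fitted alone).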
